A study of Mus musculus with 17 samples.

Results

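The 47 genes described here encode core proteins of the mouse spliceosome, most of them of its small nuclear ribonucleoproteins (snRNPs). They were chosen by name from general knowledge of the complexes and matched by symbol to protein-coding rows, so 47 of the 54532 genes in the table are members, and all 47 were among the 21871 genes tested. By complex they were 3 U1 proteins, 7 Sm proteins, 12 U2 proteins, 7 U5 proteins, 8 proteins of the U4/U6.U5 tri-snRNP and 10 of the Prp19 complex. RNA sequencing was made on R1/E cells, a line of mouse embryonic stem cells, in a wild-type form and in a *Usb1* knockout line made by CRISPR/Cas9. USB1 is an exonuclease that trims the 3′ end of U6 snRNA, the RNA at the catalytic centre of the spliceosome. Both genotypes were sampled under the self-renewal culture condition (day 0) and after 1 and 3 days of retinoic acid (RA) treatment, which drives differentiation. Wild-type cells at day 0 had 2 libraries and each of the other 5 groups had 3. Knockout cells are represented by a single line, KO-1, so the genotype and the clone cannot be told apart.

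The spliceosome removes introns from pre-mRNA and is rebuilt on every intron from snRNPs. Each snRNP holds a short uridine-rich RNA, in most cases inside a ring of Sm proteins, and proteins of its own. U1 and U2 mark the 5′ splice site and the branch site, and the tri-snRNP then joins. The Prp19 complex enters as the catalytic centre forms around U6, U2 and U5.

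The question of the genotype comparison is whether genes for the protein side of the snRNPs differ in cells that lack the U6 processing enzyme. The question of the RA comparison is how the same genes behave as stem cells differentiate. The level of a gene is given in TPM, a share of all transcripts that is corrected for gene length and has the same total in every library, so levels can be compared between genes. In bulk RNA such a share cannot tell fewer cells of a type apart from less RNA per cell. Differences are on the log2(TPM + 1) scale and were tested with limma over all 21871 genes. Calls rest on an adjusted p under 0.05, and the number that also reach 2-fold is given beside them.

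Reads on genes ranged from 15404379 to 17300186 per library. Wild-type replicate 1 at day 0 stood apart by its 239 genes with a single read, as did, less far, knockout replicate 1 at day 3 with 1224. The other wild-type library of day 0 lay close to the latter with 1352, so both libraries of that group were low, and the remaining 14 had 2150 to 2467. *Usb1*, the targeted gene, measured 37.1 and 40.0 TPM in wild-type libraries of day 0 and 15.2 to 17.9 TPM in those of the knockout, with log2 differences of -1.20, -1.34 and -0.93 at days 0, 1 and 3. The 8 stem cell markers summed to between 9188 and 10019 TPM at day 0 in both genotypes. At day 1 their sum was 8477 to 8945 TPM in wild-type and 10631 to 11525 TPM in knockout cells, with 4 of the 8 called higher in the knockout. At day 3 their sum was 1051 to 1275 TPM in wild-type and 1446 to 1798 TPM in knockout cells. The 8 primitive endoderm markers summed to 3757 to 4369 TPM in wild-type and 1590 to 2042 TPM in knockout cells at day 3, and at day 1 to 269 to 319 and 90.8 to 110 TPM. Fibroblast markers summed to at most 9.01 TPM at day 0, with *Dcn*, *Lum* and *Postn* at 0 in every library of that day, and to 40.6 to 49.8 TPM in wild-type and 62.4 to 70.2 TPM in knockout cells at day 3. Trophoblast markers summed to at most 2.30 TPM at day 0 and to 46.1 to 57.8 TPM in wild-type and 86.2 to 92.6 TPM in knockout cells at day 3. The part of these library and marker differences in the results below was not tested.

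The 47 genes were all well expressed, with means over the 6 groups from 36.1 to 555 TPM and between 178 and 19756 reads per library. Together they made up 0.787% of all TPM in wild-type cells at day 0. They lie on 15 chromosomes.

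The lowest and the highest member differed by 15.4 times. *U2af1*, which reads the AG at the 3′ splice site, was the highest at 555 TPM, and *Rbm22*, an RNA-binding protein of the active spliceosome, was the lowest at 36.1 TPM. Within the Sm core, whose 7 proteins occupy the ring once each, levels still ran from 353 TPM for *Snrpb* to 74.1 TPM for *Snrpd3*. In U5, the scaffold protein *Prpf8* stood at 423 TPM and the small thioredoxin-fold protein *Txnl4a* at 55.9 TPM. Among U1 genes *Snrpa* was the highest at 181 TPM and *Snrpc* the lowest at 42.6 TPM. In U2 the lowest was *Snrpb2*, which binds a stem-loop of U2 snRNA, at 65.4 TPM. Tri-snRNP genes were the most even, from 42.9 TPM for *Ppih*, a peptidyl-prolyl isomerase bound to U4/U6, to 122 TPM for *Usp39*, which is needed to hold the tri-snRNP together. In the Prp19 complex the highest was *Cdc5l*, a core scaffold of that complex, at 159 TPM.

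Some of these values rest on sequence shared with other genes. *Snrpf* shares 85.4% of its exon bases with overlapping genes, and *Eftud2* shares 26.9%. Near-identical copies of *Snrpe*, *Snrpf*, *Snrpg*, *U2af1* and *Ppih* elsewhere in the genome summed to at least 49.0 TPM in every library, and to as much as 153 TPM for the copy of *Snrpf* and 172 TPM for those of *Snrpg*. Levels of these genes are therefore uncertain, the more so as the library kit does not mark strand.

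Most of these genes were lower after RA treatment in wild-type cells, mainly after day 1. No untreated cells were sampled at day 1 or day 3, so RA and time in culture cannot be told apart. The summed level of the 47 genes had a mean ± SD of 7875 ± 9.81 TPM (n = 2) at day 0, 7213 ± 70.8 TPM (n = 3) at day 1 and 5628 ± 86.6 TPM (n = 3) at day 3, which is 71.5% of the day 0 sum. At day 3, 36 members were lower and 1 was higher than at day 0, where 22.5% of all genes tested were called lower and 29.6% higher. Among the 6021 genes with a mean of at least 30 TPM, a level that all 47 members reached, 39% were called lower. The median log2 change was -0.45 for the members, 0.10 for all genes and -0.07 for the genes of at least 30 TPM. Falls were small: *Cdc5l* was the only member called with at least a 2-fold change. Of all genes tested 25.8% were called so, 9.68% lower and 16.1% higher.

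**Figure D1:**
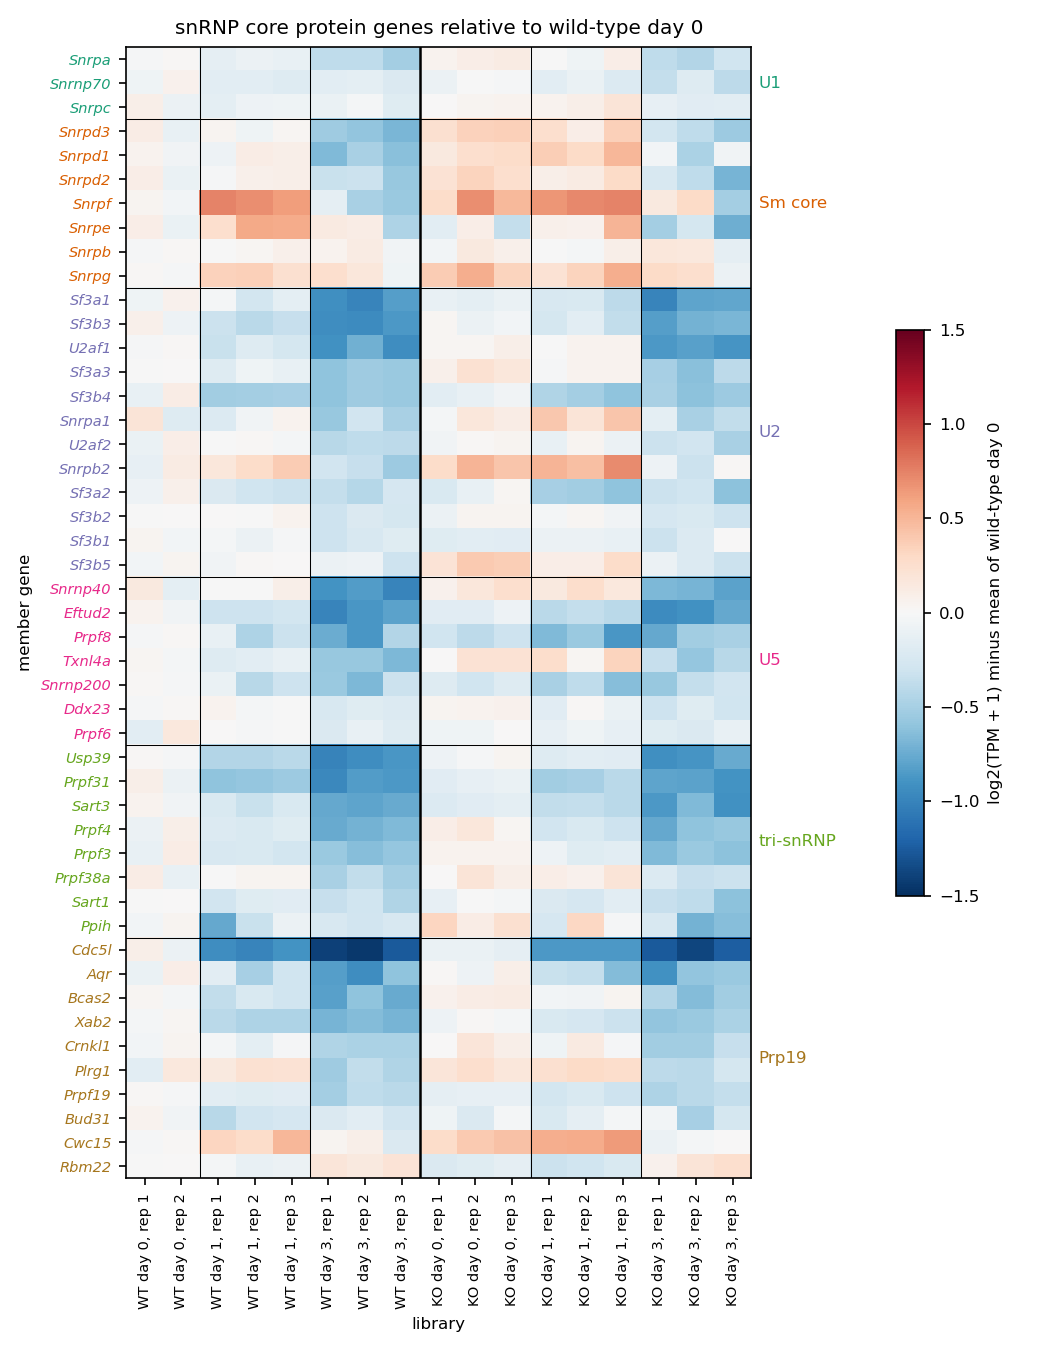
Level of each of the 47 genes (rows, grouped by complex) in each of the 17 libraries (columns), as log2(TPM + 1) minus the mean of the wild-type day 0 libraries; blue is lower and red is higher. In both genotypes the day 3 columns are blue for most genes, *Cdc5l* is already blue at day 1, and *Rbm22* is the row that turns red at day 3.

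*Cdc5l* fell most in both genotypes. The wild-type libraries held 267 and 237 TPM at day 0, then 132, 126 and 135 TPM at day 1, then 94.8, 91.4 and 104 TPM at day 3. The knockout libraries held 236, 235 and 229 TPM at day 0, then 138, 138 and 138 TPM at day 1, then 105, 96.5 and 106 TPM at day 3. The 3 days did not overlap in either genotype. From day 0 to day 3 the log2 change was -1.37 (SE 0.06, limma adjusted p = 2.4e-10) in wild-type and -1.18 (SE 0.06, limma adjusted p = 3.1e-10) in knockout cells. At day 1 it was already -0.94 in wild-type and -0.75 in knockout cells, the largest fall of any member at that time.

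Of the 12 genes grouped under U2, 11 fell by day 3 in wild-type cells. The group holds proteins of the U2 snRNP, which holds the branch site, and the auxiliary factors *U2af1* and *U2af2*. *Sf3a1*, a subunit of the SF3a complex, went from 143 and 155 TPM at day 0 to 78.2, 74.1 and 83.3 TPM at day 3, and its day 1 libraries, at 122 to 146 TPM, overlapped those of day 0. Its log2 change to day 3 was -0.91 (SE 0.09). *Sf3b3*, a large scaffold subunit of SF3b, changed by the same -0.91 (SE 0.07), but a part of this, -0.36, was reached by day 1. *Sf3b4*, another SF3b subunit, fell by 0.51 to day 1 and stood at -0.56 at day 3. *Sf3b2* and *Sf3b1*, the SF3b subunit at the branch site, changed least among the 11, by -0.26 and -0.24. The twelfth, *Sf3b5*, the smallest SF3b subunit, was at -0.16 (SE 0.09) and did not pass the test.

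Of the 7 U5 genes, 6 fell in wild-type cells by day 3. *Snrnp40*, a WD-repeat protein of U5, measured 127 and 104 TPM at day 0, 114 to 122 TPM at day 1 and 61.3, 63.9 and 57.2 TPM at day 3. Its whole change of -0.90 (SE 0.08) thus lay after day 1. *Eftud2*, the GTPase of U5, changed by -0.89 and *Prpf8* by -0.68. The exception was *Prpf6*, which bridges U5 to U4/U6, at -0.17 (SE 0.07, limma adjusted p = 0.063).

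In the tri-snRNP 7 of 8 genes fell in wild-type cells by day 3, and the sum of the 8 reached 63.2% of its day 0 level, the lowest share of any complex. *Usp39* measured 159 and 154 TPM at day 0, 115, 115 and 118 TPM at day 1 and 77.3, 81.4 and 84.5 TPM at day 3. The 3 days stood apart without overlap, and the log2 change to day 3 was -0.94 (SE 0.06). *Prpf31*, a U4/U6 protein whose human gene is known from inherited retinal disease, changed by -0.57 to day 1 and -0.89 to day 3. *Ppih* ranged from 27.0 to 43.8 TPM at day 1, and its change to day 3 of -0.26 (SE 0.19) did not pass the test.

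The Prp19 complex held both the largest fall and the only rise. Besides *Cdc5l*, 6 of its 10 genes fell in wild-type cells by day 3, among them *Xab2*, which had a log2 change of -0.44 at day 1 and -0.68 at day 3. *Bud31* and *Cwc15*, a pair of small proteins of the active spliceosome, were at -0.22 (SE 0.11) and -0.03 (SE 0.09) and did not pass. *Rbm22* measured 36.4 and 36.9 TPM at day 0, 35.8, 33.9 and 34.3 TPM at day 1 and 41.7, 40.7 and 42.5 TPM at day 3. Day 3 lay above both earlier days without overlap. The log2 rise from day 0 was 0.18 (SE 0.06, limma adjusted p = 0.029) in wild-type and 0.35 (SE 0.06, limma adjusted p = 0.00011) in knockout cells. The wild-type rise from day 0 passed under 4 of 15 other settings, was lost without any 1 of 4 of the 5 libraries compared (0.16 to 0.19) and was -0.01 when libraries were scaled to an equal median. The rise from day 1 to day 3, of 0.26 in wild-type and 0.45 in knockout cells, passed under all 16 other settings in each genotype.

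In wild-type cells the sums of the U1 and Sm genes fell least, to 82.4% and 87.1% of day 0 at day 3. In knockout cells they reached 78.1% and 79.9%, beside 78.7% for U5. In wild-type cells all 7 Sm genes had a positive log2 difference at day 1. Medians at that step were also positive for genes outside the members. Over all genes tested they were 0.20 for those shorter than 3987 exon bases and 0.15 for the others. For genes of at least 30 TPM the median was 0.06. Of the 7 Sm genes only *Snrpf* passed the test at day 1, with 73.4 and 69.2 TPM at day 0, 120, 116 and 111 TPM at day 1 and 64.8, 50.6 and 48.0 TPM at day 3. Day 1 was the highest, with no overlap, and the log2 change was 0.69 (SE 0.19, limma adjusted p = 0.0091) to day 1 and -1.09 (SE 0.17, limma adjusted p = 8.3e-05) from day 1 to day 3. After an adjustment for exon length the rise to day 1 was 0.43 and did not pass the test. *Snrpf* shares 85.4% of its exon bases with overlapping genes, and its near-identical copy measured 55.7 to 153 TPM. The part of this shared sequence in these changes was not tested. *Snrpd1*, *Snrpd2* and *Snrpd3* were the 3 Sm genes called lower at day 3 than at day 0 in wild-type cells. *Snrpf* was also lower, without overlap of libraries, but was not called. *Snrpb* was flat at 332 to 375 TPM in the 8 wild-type libraries, with a log2 change of 0.04 (SE 0.08). Of the 3 U1 genes, *Snrpa* and *Snrnp70*, both of which bind U1 snRNA, fell by day 3, by 0.42 and 0.17 on the log2 scale.

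**Figure D2:**
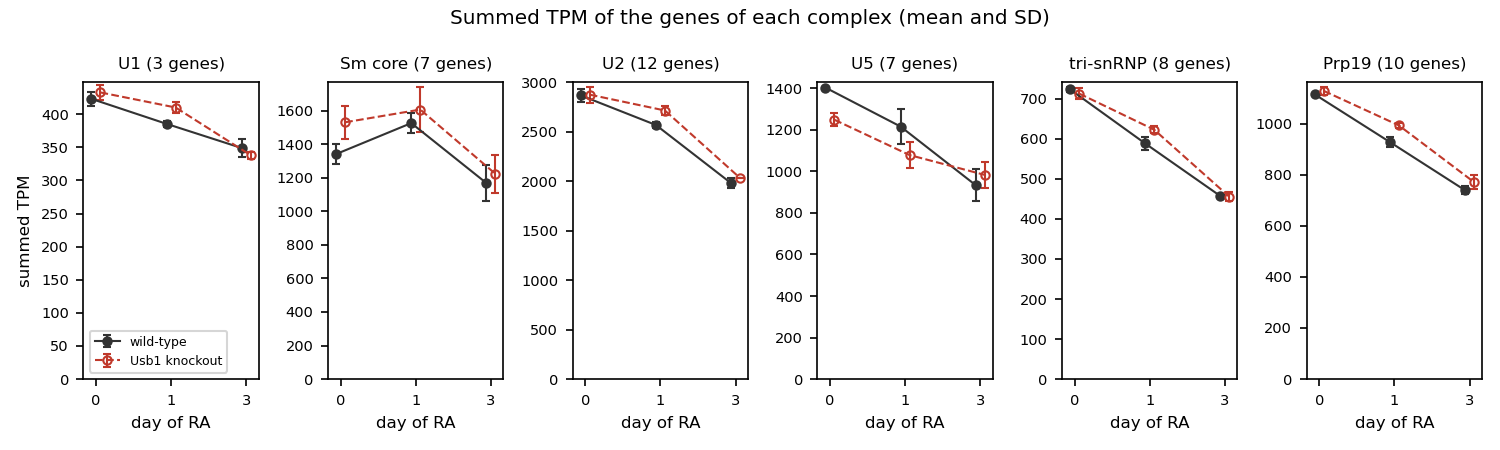
Summed TPM of the genes of each complex against the day of RA treatment, for wild-type (filled, solid line) and *Usb1* knockout cells (open, dashed line), as mean and SD over libraries. Every complex is lower at day 3 than at day 0 in both genotypes, and the Sm core is the one whose mean is highest at day 1.

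The steps share the libraries of a day, so each has its own count here. At day 1 against day 0 in wild-type cells 17 members were lower and 2, *Snrpf* and *Cwc15* (0.36), were higher, where 12.5% of all genes were called lower and 25.5% higher. For genes of at least 30 TPM these shares were 22.2% and 30.9%. With the libraries scaled to an equal median 26 members were lower and none was higher, and *Cwc15* stood at 0.13 after an adjustment for exon length. At day 3 against day 1 in wild-type cells 34 members were lower and 1, *Rbm22*, was higher, against 24.3% and 19.5% of all genes. For genes of at least 30 TPM these shares were 41.3% and 25.2%. *Snrpf*, whose level is uncertain because of shared sequence, was the one call of at least 2-fold at that step. Of all genes 15.2% were called so, 7.54% lower and 7.7% higher. *Snrnp40*, *Sf3a1*, *Snrpb2* and *Plrg1*, a WD-repeat protein of the Prp19 complex, had the next largest falls of that step, with log2 changes from -0.93 to -0.65.

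Knockout cells showed a like fall. The summed level of the 47 genes had a mean ± SD of 7930 ± 194 TPM at day 0, 7427 ± 108 TPM at day 1 and 5803 ± 50.5 TPM at day 3 (n = 3 each), which is 73.2% of day 0. At day 3, 38 members were lower and 1 was higher than at day 0, against 21.8% and 29.7% of all genes tested. For genes of at least 30 TPM these shares were 37.4% and 35.4%. *Cdc5l* was again the one call of at least 2-fold, against 21.9% of all genes, 8.04% lower and 13.8% higher. At day 1 against day 0, 14 were lower and none was higher, against 11.7% and 16% of all genes. For genes of at least 30 TPM these shares were 21.7% and 22.8%. Without replicate 3 of the knockout cells at day 1, 7 members were called at that step, and without replicate 3 at day 0, 8 were. At day 3 against day 1, 36 were lower and 1 was higher, against 19.4% and 25.5% of all genes. For genes of at least 30 TPM these shares were 35.2% and 33%. By complex, 3 of 3 U1, 4 of 7 Sm, 11 of 12 U2, 4 of 7 U5, 8 of 8 tri-snRNP and 8 of 10 Prp19 genes were lower by day 3 in knockout cells. After *Cdc5l*, the largest falls from day 0 to day 3 were those of *U2af1* (-0.90), *Snrnp40* (-0.89), *Usp39* (-0.83) and *Ppih* (-0.75).

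The responses of both genotypes share no library. Of the members, 33 fell by day 3 in both genotypes, which is 91.7% of those that fell in wild-type and 86.8% of those that fell in knockout cells. Over all genes tested these shares were 73.4% and 75.8%, and over genes of at least 30 TPM 82.9% and 86.3%. The sign was the same in 46 of 47 members, in 77.6% of all genes and in 87.7% of those of at least 30 TPM. Across the 47 genes, which are not independent replicates, Pearson's r between both log2 changes was 0.80 and Spearman's rho 0.75, against 0.82 and 0.74 over all genes and 0.95 and 0.91 over those of at least 30 TPM. The median difference between them was 0.02. *Prpf8*, *Sf3b1* and the U4/U6-unwinding helicase *Snrnp200* were called in wild-type cells alone, and *Cwc15*, *Ppih*, *Sf3b5*, *Snrpc* and *Snrpf* in knockout cells alone. None of these 8 genes passed the test of whether the change from day 0 to day 3 differed between the genotypes.

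**Figure D3:**
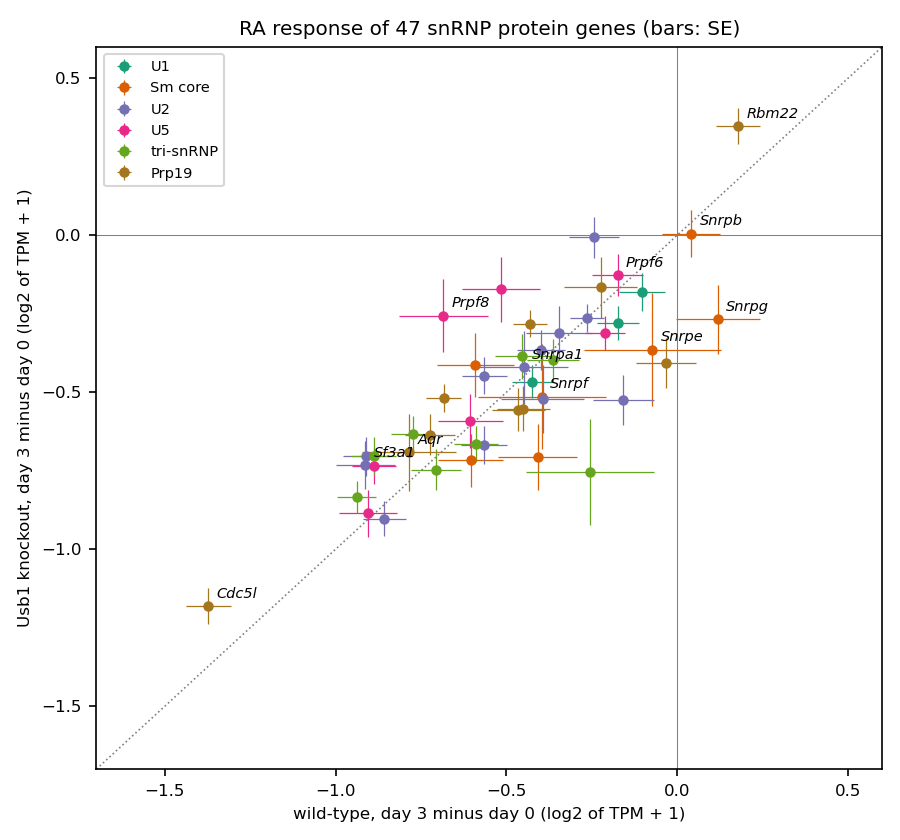
Log2 change from day 0 to day 3 of RA treatment in wild-type cells (horizontal axis) and *Usb1* knockout cells (vertical axis) for the 47 genes, coloured by complex, with standard errors as bars and equal change as the dotted line. Most genes lie at negative values on both axes near the line, with *Cdc5l* at -1.37 and -1.18 and *Rbm22* at 0.18 and 0.35.

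The interaction, which is the change in knockout minus the change in wild-type cells, was called for no member from day 0 to day 1, for none from day 0 to day 3, and for 1 member, *U2af1*, from day 1 to day 3. All genes tested were called at 2.23%, 6.15% and 7.61% in these tests with limma. At an unadjusted p under 0.05 the numbers of members were 5, 10 and 7, which is 10.6%, 21.3% and 14.9%, where 18.1%, 22.4% and 21.3% of all genes passed, and limma on recovered reads (voom) called 0, 0 and 2.

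*U2af1* lay 0.01 (SE 0.06) apart on the log2 scale between the genotypes at day 3 and 0.29 (SE 0.06) at day 1. The wild-type libraries held 656 and 675 TPM at day 0, then 529, 580 and 556 TPM at day 1, then 353, 403 and 347 TPM at day 3. The knockout libraries held 680, 681 and 708 TPM at day 0, then 661, 690 and 692 TPM at day 1, then 367, 378 and 361 TPM at day 3. Day 1 libraries of wild-type cells lay below those of day 0, while those of knockout cells overlapped day 0. The log2 change to day 1 was -0.26 (SE 0.06, limma adjusted p = 0.0040) in wild-type and -0.02 (SE 0.06, limma adjusted p = 0.86) in knockout cells. From day 1 to day 3 it was -0.59 in wild-type and -0.88 in knockout cells, with an interaction of -0.29 (SE 0.08, limma adjusted p = 0.038). This call held under 10 of 22 other settings, with values from -0.49 to -0.22. It was lost on leaving out any 1 of 8 of the 12 libraries compared, among them wild-type replicate 2 at day 3, without which the value was -0.22. Near-identical copies of *U2af1* summed to 62.8 to 143 TPM over the libraries, and their part in these differences was not tested.

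**Figure D4:**
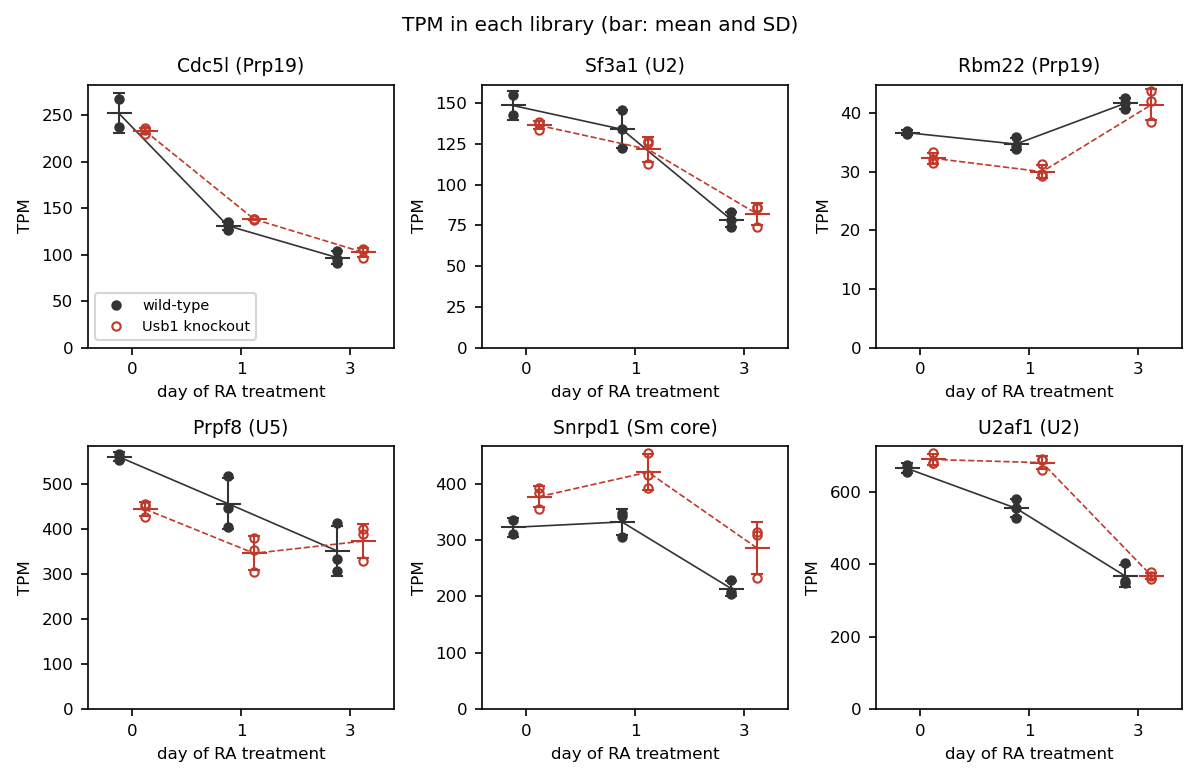
TPM of 6 genes in each library against the day of RA treatment, for wild-type (filled) and *Usb1* knockout cells (open), with mean and SD as bars; axes start at 0. *Cdc5l* falls at each step in both genotypes, *Sf3a1* falls mainly after day 1, *Rbm22* rises after day 1, and *U2af1* and *Prpf8* show the genotypes apart at day 1 and together at day 3.

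Differences between the genotypes were small for most genes on every day. The summed level of the 47 genes in knockout cells was 100.7% of wild-type at day 0, 103.0% at day 1 and 103.1% at day 3. Sums of single complexes lay further apart. At day 0 the Sm core stood at 114.1% of wild-type and U5 at 89.0%, both without overlap of libraries, and the other complexes at 98.6% to 102.3%. At day 1 U5 stood at 88.7%, with libraries that overlapped, and the other complexes at 105.3% to 107.0%. At day 3 all complexes lay at 96.9% to 105.3%. No member was called with a 2-fold difference on any day, against 3.05%, 2.22% and 1.29% of all genes, and 39, 37 and 42 of the 47 had a log2 difference under 0.25 in size at days 0, 1 and 3. The median standard error of these differences was 0.08, 0.07 and 0.07. Of the members 5 were higher and none was lower at day 0, 8 were higher and 3 lower at day 1, and 1 was higher and none lower at day 3. The shares of all genes called higher were 5.08%, 3.74% and 3.96% on these days, and the shares called lower 6.8%, 13.6% and 3.56%. Among genes with a mean of at least 30 TPM, 8.55%, 8.89% and 8.34% were called higher and 11%, 22.9% and 5.76% lower. With the libraries scaled to an equal median, which moved the day 1 median over all genes from -0.13 to 0.08, 20 members were higher and none lower at day 1.

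At day 0 the genes higher in knockout cells were *Snrpg* (log2 difference 0.42), *Snrpb2* (0.40), *Cwc15* (0.37), *Sf3b5* (0.32) and *Snrpd3* (0.31). *Cwc15* measured 97.7 and 101 TPM in wild-type libraries and 120, 130 and 135 TPM in knockout cells (SE 0.09, limma adjusted p = 0.017), without overlap. *Snrpf* had a larger difference of 0.49 (SE 0.19) but did not pass the test (chosen after its values were seen). The count of 5 was 0 without knockout replicate 2 or replicate 3, 1 without wild-type replicate 1, 3 without knockout replicate 1, and 0 when the fit held the libraries of day 0 alone.

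At day 1 the called genes with the largest rise in knockout over wild-type cells were *Snrpa1* (0.41), which pairs with *Snrpb2* on U2 snRNA, *Txnl4a* (0.37), *Snrpd1* (0.34), *U2af1* (0.29) and the Prp19 complex protein *Bcas2* (0.28). *Txnl4a* measured 52.5, 54.0 and 55.7 TPM in wild-type libraries and 72.7, 61.8 and 76.3 TPM in knockout cells (SE 0.08, limma adjusted p = 0.0091), without overlap. *Ppih* had a difference of 0.41 (SE 0.17), slightly above that of *Snrpa1*, but was not called (chosen after its values were seen). The *U2af1* difference passed under all 16 other settings and that of *Txnl4a* under 15. *Prpf8* (-0.40), *Sf3a2* of the SF3a complex (-0.27) and *Rbm22* (-0.20) were the 3 lower genes. *Prpf8* measured 518, 406 and 448 TPM in wild-type libraries and 354, 380 and 305 TPM in knockout cells, without overlap, and its call held under 8 of 16 other settings. *Sf3a2* held under 3, and *Rbm22* under 8 with a difference of 0.01 at an equal median. The count of 11 calls was 4 to 8 on leaving out 1 library: 4 without wild-type replicate 1 or knockout replicate 3, 5 without knockout replicate 1, 6 and 7 without wild-type replicates 2 and 3.

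At day 3 *Snrpd1*, an Sm protein of the D1 and D2 pair, was the single call. Wild-type libraries held 204, 230 and 209 TPM of it, and knockout libraries 314, 232 and 310 TPM. The groups did not overlap, but knockout replicate 2 lay beside the highest wild-type library. The log2 difference was 0.40 (SE 0.10, limma adjusted p = 0.025), and without knockout replicate 1, the library with fewer single-read genes, it was 0.33 and no longer called. Without wild-type replicate 1 no member was called either, and without knockout replicate 2 or wild-type replicate 2, 3 and 2 were. *Snrpe* had a larger difference in size, -0.43 (SE 0.18), and was not called (chosen after its values were seen).

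The genotype differences at days 0 and 1 went with gene length. Across the 47 genes Spearman's rho between the log2 difference and exon length was -0.51 at day 0, -0.42 at day 1 and 0.05 at day 3. Across 21861 tested genes with a length it was -0.26, -0.15 and 0.06. The 23 members shorter than 3987 bases had a median difference of 0.09 at day 0 and 0.12 at day 1, and the 24 others -0.03 and -0.04. After adjustment of each library for a trend with exon length, 0 members were called at day 0, 18 higher and none lower at day 1, and 1 at day 3. The falls after RA treatment did not end under that adjustment, with 40 members called lower by day 3 in wild-type and 41 in knockout cells.

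**Figure D5:**
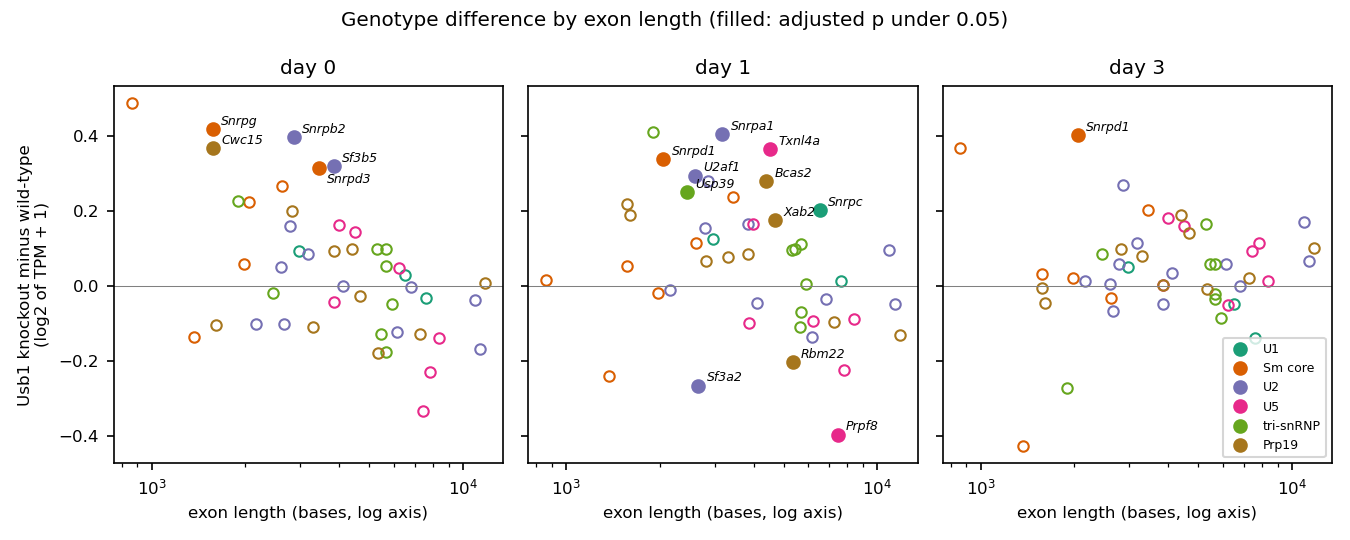
Log2 difference between *Usb1* knockout and wild-type cells (vertical axis) against exon length in bases (horizontal log axis) for the 47 genes at days 0, 1 and 3, coloured by complex; filled points passed the test. Points run from upper left to lower right at days 0 and 1 (rho -0.51 and -0.42) and show no slope at day 3 (rho 0.05).

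Start regions of the members were read because these genes fell together. RefSeq (GRCm38.p6) gave windows of 300 bases, from 250 before to 50 after the start site, for 35 of the 47 genes, with 41 windows in all, and motifs were searched on both strands. CGGAAG, the core letters of sites for ETS family factors, was in 70.7% of the 41 member windows, in 16.9% of 32851 windows of all genes and in 35.9% of 5621 windows of genes with a mean of at least 30 TPM. GGGCGG, the GC box, was in 53.7%, 35.7% and 68.6%, and CCAAT in 43.9%, 37.4% and 39.4%. TATAAA was in 4.88%, 13.6% and 6.17%. AGGTCA, the half-site of retinoic acid receptors, was in 12.2%, 16.3% and 11.2%, and the spaced repeat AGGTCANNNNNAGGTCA, which holds that half-site, was in none of the member windows, in 0.00913% of all windows and in none of the windows of genes of at least 30 TPM. Member windows held a median of 24 CG pairs and 58% GC, and all windows 7 and 52.7%. CGGAAG holds such a pair, and the part of base content in its shares was not tested. Some genes, as *Sf3b2* and *U2af1*, entered with windows that overlap. Of the 35 genes, 26 had the ETS letters, with a median change to day 3 in wild-type cells of -0.42, and the 9 without them, *Cdc5l* among these, had a median of -0.68. Below are 30 bases on the strand of the gene around the occurrence nearest to the start site, for the gene of each complex that fell most among those with the letters. Capitals mark that one occurrence of CGGAAG or, on the other strand, of its reverse complement, and other occurrences, as directly before it in *Snrnp200*, stay in lower case.
Snrpa (U1, chr7:27196253-27196282, minus strand): gaagaggtgtggCTTCCGaaaggcagtctt
Snrpd2 (Sm core, chr7:19149794-19149823, plus strand): agccgcaggagaCGGAAGtcccgcccttct
Sf3a1 (U2, chr11:4160336-4160365, plus strand): agagggcgggacCGGAAGtgctcccgcggc
Snrnp200 (U5, chr2:127208348-127208377, plus strand): gcgtcccggaagCGGAAGcaagtccgtttc
Prpf3 (tri-snRNP, chr3:95855866-95855895, minus strand): ctgaggccccgcCTTCCGtagtcacgtgcc
Aqr (Prp19, chr2:114175315-114175344, minus strand): ccactagttctgCTTCCGgggaacgccggg
The letters began 32, 26 and 6 bases before the start site in *Snrpd2*, *Snrnp200* and *Sf3a1*, and at bases 2, 3 and 8 counted from the start site in *Snrpa*, *Prpf3* and *Aqr*. The RefSeq start used for *Aqr* lies inside the gene as GENCODE M21 annotates it. A match of letters is a description and shows no binding.

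Genes of the same pathway outside the 47 were read from lists of other spliceosome and assembly factors. Over 65 tested genes of 5 lists, 4 of spliceosome proteins and 1 of snRNP assembly, 43 were lower and 5 higher by day 3 in wild-type cells and 41 and 5 in knockout cells. Of all genes tested, 22.5% were lower and 29.6% higher in wild-type cells, and 21.8% and 29.7% in knockout cells. For genes of at least 30 TPM these shares were 39% and 33.2%, and 37.4% and 35.4%. Assembly factors, which load the Sm ring onto snRNA in the cytoplasm, had a median change of -0.70 in wild-type cells, with 11 of 13 lower and none higher. *Gemin6* and *Gemin5* of the SMN complex changed by -1.34 and -1.21, and *Prmt5*, the methyltransferase that modifies Sm proteins, by -1.23. In the Lsm2-8 ring, which binds the 3′ end of U6 snRNA that USB1 trims, 3 of 7 genes were higher in knockout cells at day 0, 3 at day 1 and 2 at day 3, and none was lower. The median difference of the ring was 0.38, 0.22 and 0.17 on these days. Over all genes tested 5.08%, 3.74% and 3.96% were called higher in knockout cells. The exon length adjustment and the other settings were run for the 47 members alone, so the calls of the ring were not checked under them.

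*Lsm8*, the subunit that distinguishes the nuclear ring from the cytoplasmic one, measured 16.4 and 15.2 TPM in wild-type libraries and 25.9, 23.7 and 24.8 TPM in knockout cells at day 0, a log2 difference of 0.62 (SE 0.10). At day 1 its difference was 0.02 (SE 0.09), with means of 31.2 TPM in knockout and 30.7 TPM in wild-type cells. At day 3 its difference was -0.08 (SE 0.09), and *Lsm5* was the ring gene furthest apart, at 0.80 (SE 0.16). Of 18 other U1 and U2 proteins 11 fell and 3 rose by day 3 in wild-type cells, *U2surp* furthest at -1.21. Of 19 helicases and step factors 13 fell and none rose, with *Ppil1* at -0.93 and *Cwc27* at -0.92. Of 8 proteins of the minor spliceosome 3 fell and *Zcrb1* rose by 0.74. The minor spliceosome count lies near the 39% called lower among genes of at least 30 TPM, beside 22.5% of all genes tested. *Snrpn*, the paralogue of *Snrpb*, fell by 0.73 on the log2 scale in wild-type cells, where *Snrpb* was flat, and was at -0.23 (SE 0.06) between the genotypes at day 0. *Tut1*, which adds uridines to U6 snRNA, did not pass between the genotypes on any day, with differences from -0.08 to 0.03.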

How the data were processed

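RNA was sequenced in 17 libraries of wild-type and *Usb1* knockout R1/E cells, made with a NEBNext Ultra kit. Per the submitters' processing notes, HISAT2 2.1.0, StringTie 1.3.6 and GRCm38.p6 were used; the authors tested differences with DESeq2. The deposited values are TPM, made by the authors for each gene and library. No columns of comparisons are in the table.

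All genes reaching 1 TPM in 2 or more libraries were tested with limma 3.58.1 (R 4.3.3, empirical Bayes with trend) on log2(TPM + 1) with 6 group means, which understates changes of low genes. P-values were adjusted by Benjamini-Hochberg over all genes of a comparison. TPM times exon length (GENCODE M21) gave whole reads within 0.01 for 95.9% to 96.6% of values, and limma's voom on these reads was an alternative. The others were a pseudocount of 0.1, no filter, protein-coding genes alone, quantile or equal-median scaling, a replicate block, the libraries compared alone and each library left out. An exon length adjustment, voom and leaving out both libraries with few single-read genes were chosen after seeing the data. The fit was tested on simulated data. Near-identical copies are transcripts matched by blastn 2.17.0 at 95% identity over at least 150 bases and 50% of the copy. Tables and plots were made in Python 3.11.15 (matplotlib 3.10.9, pandas 2.3.3, numpy 2.4.6).

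The members and gene lists were chosen with earlier results of these data known. Named were the highest and lowest member of each complex, the 5 largest called rises and falls of each comparison, called interactions, and up to 3 genes of each other list. The sources call the libraries biological replicas, and p-values measure the spread between them.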

Additional observations from a re-analysis of the deposited data

Results flagged for a closer look

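The response of *U2af1* to RA treatment from day 1 to day 3 differed between the genotypes by the test of the difference itself. The knockout minus wild-type difference of the log2 changes was -0.29 (limma adjusted p = 0.038), with changes of -0.88 in knockout and -0.59 in wild-type cells. It was 1 of 47 members called, or 2.13%, where 7.61% of all genes tested were called, so the share of members is below the background. The call held under 10 of 22 other settings and was lost on leaving out any 1 of 8 of the 12 libraries compared. The part of near-identical copies of *U2af1*, at 62.8 to 143 TPM over the libraries, was not tested. Groups of 2 or 3 libraries are too small for a search for single libraries that stand far from their group, so none was made.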

How the results depend on the processing

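Of the values of named genes under other settings, 681 kept their direction and side of the threshold, 121 kept their direction without passing the test, and 2 turned. Both were of *Rbm22* with libraries scaled to an equal median, at 0.0104 between the genotypes at day 1 and -0.0068 for wild-type cells from day 0 to day 3. The cause was not tested. Each RA step other than day 1 in knockout cells kept its count within 1.5 times under every setting. Of the genotype counts, the 5 calls at day 0 became 1 with no filter, 1 at an equal median, 2 with the replicate block, 8 with voom, 0 with the day's libraries alone, 0 after exon length adjustment and 1 without both libraries with few single-read genes. The 11 calls at day 1 became 20 at an equal median, 18 with voom and 18 after exon length adjustment. The 1 call at day 3 became 2 with quantile scaling or voom, and 0 at an equal median, with the day's libraries alone or without both such libraries. For the interactions, day 0 to day 1 had 1 call with quantile scaling, 1 with the libraries compared alone and 2 after exon length adjustment. Day 0 to day 3 had 1 among protein-coding genes. Day 1 to day 3 had 0 with no filter, at an equal median or with the libraries compared alone, 2 among protein-coding genes, with voom or after exon length adjustment, and 4 without both libraries with few single-read genes. Leaving out 1 library gave 0 to 4, 4 to 8 and 0 to 3 calls between the genotypes at days 0, 1 and 3. In knockout cells it gave 7 to 13 at day 1, 37 to 41 from day 0 to day 3 and 33 to 37 from day 1. In wild-type cells it gave 14 to 17, 33 to 38 and 32 to 35, and for the interactions 0 to 2, 0 to 2 and 0 to 3.

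Deviations from the group means were on average nearly uncorrelated between same-numbered replicates of different groups (40 pairs, mean r over genes -0.01, from -0.13 to 0.12). Pairs with other numbers had a mean r of 0.003 (80 pairs). Whether some replicates share a batch was not tested. With the replicate block, the counts at days 0, 1 and 3 between the genotypes were 2, 9 and 1, against 5, 11 and 1 without it. The setting without both libraries with few single-read genes keeps wild-type replicate 2 at day 0, which is also low (1352), since no wild-type library of day 0 would be left without it. Per library, a member had at least 178 reads, and the 2 or 3 libraries of a group limit which differences could be called.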
